A study of Caenorhabditis elegans with 2 samples.

Results

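Short gaps between tandem genes are the intergenic stretches of 1 to 500 bp that separate neighbouring protein-coding genes on the same strand. They were taken from the Ensembl release 115 gene models of WBcel235, on chromosomes I to V, wherever no other protein-coding gene overlapped the gap. Of 17073 gaps between adjacent protein-coding genes on chromosomes I to V and X, 3262 met this definition, with a median length of 181.5 bp and quartiles of 102 and 333.75 bp. They joined 5659 genes into 2397 tandem runs, which is 32.8% of the protein-coding genes of chromosomes I to V. Of the runs, 1799 had 2 genes, 421 had 3 and 177 had 4 or more, up to 9. A gap upstream of the first gene was found for 2257 runs and served as the comparison, and the other 140 runs began at a gene that overlapped or touched its neighbour. The upstream neighbour was divergent in 1415 runs and on the same strand, more than 500 bp away, in 842.

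Binding of CEH-90, a homeobox protein, was mapped by ChIP-seq, the sequencing of DNA recovered by chromatin immunoprecipitation, here with an antibody against GFP. The material was whole hermaphrodite C. elegans of strain OP210, first-stage larvae (L1) at 6 h after synchronization, which was by bleaching and starvation. The strain carries the integrated transgene wgIs210, a CEH-90 fusion with GFP and FLAG at its C terminus, in an unc-119(ed3) III background, and both biological replicates share this genotype. There was 1 group of 2 replicates and no second condition, and the control behind the peak lists was not analysed here. In whole worms, a site occupied in few cells and a site occupied weakly in many cells cannot be told apart. No immunoprecipitation from worms without the fusion was analysed, so recovery of CEH-90 and general recovery of open gene starts cannot be told apart either. The labels give neither the promoter nor the cells in which the fusion is made.

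In C. elegans, neighbouring genes on the same strand are often transcribed together as an operon. The long transcript is cut into single messenger RNAs by 3' end formation of the upstream gene and trans-splicing of a leader, usually SL2, to the downstream gene. The genes of such operons lie close together, and many encode basic machinery of transcription, splicing, translation and mitochondria. Some short gaps nevertheless hold an internal promoter of the downstream gene. Homeobox proteins such as CEH-90 belong to the sequence-specific DNA-binding factors. Distance and strand alone defined the gaps here, and annotated operons and trans-splice sites were not used, so the runs are operon-like by position only.

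The sequences below show what lay under the summits of strong peaks in these gaps, and what a textbook operon gap without a summit looked like. All were read from the RefSeq WBcel235 genome, on the strand of the genes and inside the gap, from the upstream gene on the left towards the start of the downstream gene on the right. Capitals mark 6 words on either strand, which are GGCCAC with its relative CGGCCA, the word GGCCTA with its relative CTAGGC, the word ACGCGC, and a later find, TCTCGG. Overlapping matches run together. The gaps pnc-1/Y38C1AA.12 (chrIV:192152-192255, plus strand), T16G12.12/ekl-6 (chrIII:10064282-10064403, plus strand) and C04E6.12/lrpr-1 (chrV:5917892-5918059, minus strand) are printed whole, because they are the shortest of the 12 with the strongest summits.
pnc-1/Y38C1AA.12: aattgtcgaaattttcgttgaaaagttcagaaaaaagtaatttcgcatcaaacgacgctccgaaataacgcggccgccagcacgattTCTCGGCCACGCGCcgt
T16G12.12/ekl-6: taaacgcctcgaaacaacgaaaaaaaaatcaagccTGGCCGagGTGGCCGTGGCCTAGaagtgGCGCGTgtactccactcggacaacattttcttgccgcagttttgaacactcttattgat
C04E6.12/lrpr-1: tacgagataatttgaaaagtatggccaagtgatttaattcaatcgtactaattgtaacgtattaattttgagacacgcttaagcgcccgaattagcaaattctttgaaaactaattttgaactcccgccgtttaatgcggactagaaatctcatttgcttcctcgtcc
For longer gaps the stretch within 50 bp of the summit is printed. These are F26G1.15/F26G1.1 (chrII:4791422-4791522, plus strand), gpd-1/T09F3.4 (chrII:10395519-10395619, plus strand), ubxn-3/F48A11.4 (chrII:216715-216815, minus strand), ceeh-2/sluh-7 (chrV:10356068-10356168, minus strand) and R05H10.7/rbm-28 (chrII:14857070-14857170, plus strand).
F26G1.15/F26G1.1: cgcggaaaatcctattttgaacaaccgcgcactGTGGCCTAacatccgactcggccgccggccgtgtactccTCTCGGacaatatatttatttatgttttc
gpd-1/T09F3.4: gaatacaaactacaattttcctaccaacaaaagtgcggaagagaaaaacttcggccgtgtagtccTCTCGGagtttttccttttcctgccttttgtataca
ubxn-3/F48A11.4: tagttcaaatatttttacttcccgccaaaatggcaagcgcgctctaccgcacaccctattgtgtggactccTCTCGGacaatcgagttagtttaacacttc
ceeh-2/sluh-7: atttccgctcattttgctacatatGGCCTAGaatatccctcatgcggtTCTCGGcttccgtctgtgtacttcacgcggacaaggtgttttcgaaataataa
R05H10.7/rbm-28: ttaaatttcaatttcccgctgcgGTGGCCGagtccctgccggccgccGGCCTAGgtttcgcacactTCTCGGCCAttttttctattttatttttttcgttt
The gap of fib-1/rps-16 (chrV:15000542-15000650, minus strand), an operon of fibrillarin and a ribosomal protein, held no summit and is printed whole for contrast.
fib-1/rps-16: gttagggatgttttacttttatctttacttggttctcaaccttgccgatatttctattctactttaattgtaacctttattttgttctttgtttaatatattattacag
F26G1.15/F26G1.1, gpd-1/T09F3.4 and ubxn-3/F48A11.4 all hold TCTCGG in the direction of the downstream gene. So do ceeh-2/sluh-7 and R05H10.7/rbm-28. The windows printed for longer gaps thus all hold this word, but they were not picked by rank and do not stand for all members. TCTCGG was at 9 of the 20 strongest summits in tandem gaps and at 7 of the other 55. The fib-1/rps-16 gap holds none of the marked words. Neither does the gap of C04E6.12/lrpr-1, which had the strongest summit of all tandem gaps. Of the 20 strongest summits, 3 had neither a GGCC word nor TCTCGG within 50 bp, so lack of these words does not mark a gap without a summit.

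Few of the tandem gaps carried a reproducible peak. The authors' optimal list, called the IDR list here, kept 765 peaks after a cut on the irreproducible discovery rate (IDR), which scores whether replicates order their peaks alike. Its summits, the points of strongest signal within a peak, fell in 74 of the 3262 tandem gaps, or 2.27% (exact Clopper-Pearson 95% interval 1.79 to 2.84%). The same share over all 14697 gaps of chromosomes I to V, most of them longer, was 3.52%. The pooled list of 30000 peaks, which includes background by its description, had a summit in 403 tandem gaps, or 12.4%, against 35.7% of all gaps. Per length the order was different. Tandem gaps held 105.5 IDR summits per Mb, against 18.5 per Mb in all gaps and 8.60 per Mb over all sequence of chromosomes I to V. They took 10.6% of the IDR summits and 1.66% of the pooled summits with 0.861% of the sequence. Of the 424 pooled summits in tandem gaps, 75 (17.7%, interval 14.2 to 21.7%) were in the IDR list, against 5.13% in all gaps and 2.79% on chromosomes I to V as a whole. This share was 9.83% in whole gaps upstream of runs and 21.9% in their 500 bp nearest the first gene. In gaps of 1 to 500 bp it was 35.7% between divergent genes and 1.30% between convergent genes. All such intervals cover counting error over gaps or peaks only, and neighbouring gaps and peaks are not independent.

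Gaps of the same length range between genes in other orientations framed these values. Divergent gaps, with a gene start at each end, held an IDR summit in 118 of 868 cases (13.6%, 11.4 to 16.1%). Convergent gaps, with a gene end on each side and no annotated start, held an IDR summit in 1 of 1102 (0.0907%, 0.00230 to 0.505%). Tandem gaps, with 1 start and 1 end, lay between them. The 3 intervals did not overlap, and the differences were not tested. The order was the same in density, with 493 IDR summits per Mb in divergent gaps, 105.5 in tandem gaps and 4.43 in convergent gaps.

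Within the tandem gaps, the share with an IDR summit differed by length, and most gaps of every length held none. None of the 770 gaps of up to 100 bp held an IDR summit, which allows a share of up to 0.390% by the rule of 3 counts over the total, and 25 of them held a pooled summit. The share was 1.03% (10 of 967) over 100 and up to 200 bp, 4.77% (26 of 545) up to 300 bp, 4.79% (25 of 522) up to 400 bp and 2.84% (13 of 458) up to 500 bp. Longer gaps hold more sequence, and per Mb the IDR summits were 0, 77.3, 190, 136 and 68.0 from the shortest to the longest bin. The 74 gaps with an IDR summit had a median length of 305.5 bp and ran from 104 to 489 bp. Gaps of up to 150 bp made up 1462 of the members and gave 4 of the 74, which were pnc-1/Y38C1AA.12, T16G12.12/ekl-6, spsb-2/Y46E12BL.2 and C55A6.11/pafo-1. In divergent gaps of 1 to 100 bp, which have a gene start at each end, the share was 7.55% (4 of 53, 2.09 to 18.2%). The parts of length and orientation in these shares were not tested. Both replicates gave the pattern on their own. Among as many top peaks as the IDR list holds, 0 of 770 gaps of 1 to 100 bp had a summit in either replicate, while gaps of 201 to 300 bp had one in 4.77% in replicate 1 and 4.40% in replicate 2.

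**Figure D1:**
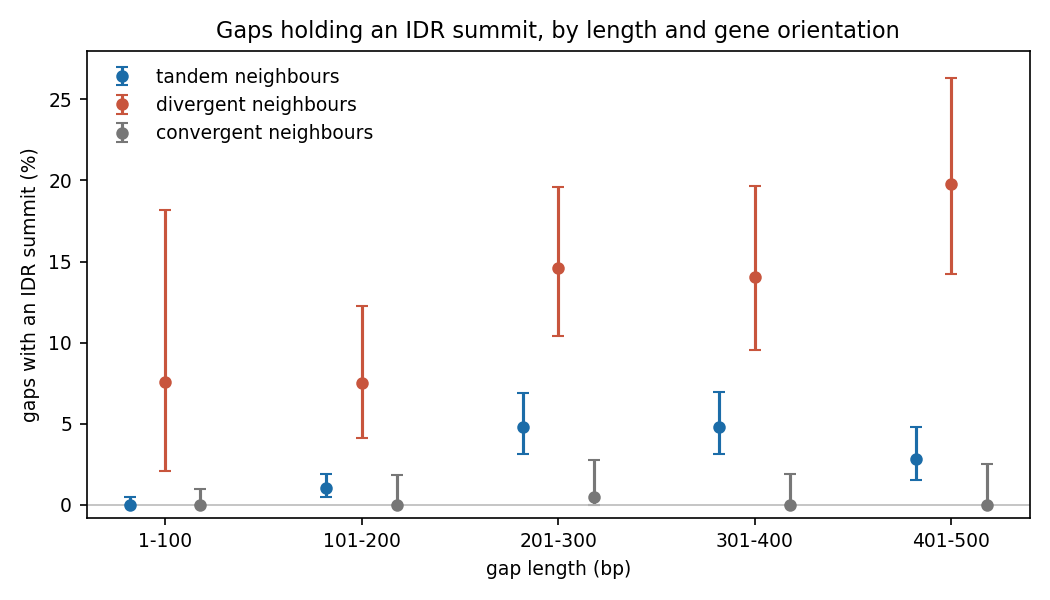
Share of gaps that held an IDR summit (vertical axis, percent) by gap length in bins of 100 bp (horizontal axis), for tandem, divergent and convergent neighbours. Points are shares and bars are exact 95% intervals. Tandem gaps ran from 0% up to 100 bp to 4.77% at 201 to 300 bp, and divergent gaps lay above them in every bin.

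Shares on both sides of the 500 bp limit were close. Tandem gaps of 451 to 500 bp held an IDR summit in 8 of 227 cases (3.52%) and those of 501 to 550 bp in 8 of 194 (4.12%). Just inside the limit were W01G7.4/lem-2 with a gap of 489 bp, T08B2.11/rps-17 with 480 bp and rrsr-1/rpoa-12 with 479 bp. Just outside were K05C4.4/K05C4.7 with 506 bp and a signal of 102.9, ZK370.6/pdhk-2 with 520 bp and 111.3, and deb-1/rps-4 with 532 bp and 123.0.

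The median summit stood near the middle of its gap, as it also would if summits were spread evenly. Summits beyond an edge, inside a gene, were not counted. The median IDR summit was 146 bp before the start of the downstream gene (quartiles 86.5 and 186 bp) and 155 bp past the end of the upstream gene (111.5 and 204.5 bp). As a fraction of the gap from the upstream gene's end, the median was 0.517, with quartiles of 0.396 and 0.645. Of the 75 summits, 41 (54.7%, 42.7 to 66.2%) were nearer the start than the end. Only 9 lay within 50 bp of the downstream start and 3 within 50 bp of the upstream gene's end. The 349 other pooled summits in these gaps had the same centre, at 0.492, with wider quartiles of 0.243 and 0.732.

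Counted per kb of gap sequence at each distance, IDR summits were densest at 151 to 200 bp before the next start, with 0.216 per kb (exact Poisson 95% interval 0.128 to 0.341) from 18 summits. At 1 to 50 bp before the start the value was 0.0565 per kb (0.0258 to 0.107). In the gaps upstream of runs the highest values were 0.270 per kb between 100 and 150 bp and 0.266 at 151 to 200 bp, and the first 50 bp held 0.178 per kb (0.109 to 0.274). The intervals of both kinds of gap overlapped at 51 to 200 bp and did not overlap in the first 50 bp. The differences at single distances were not tested.

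**Figure D2:**
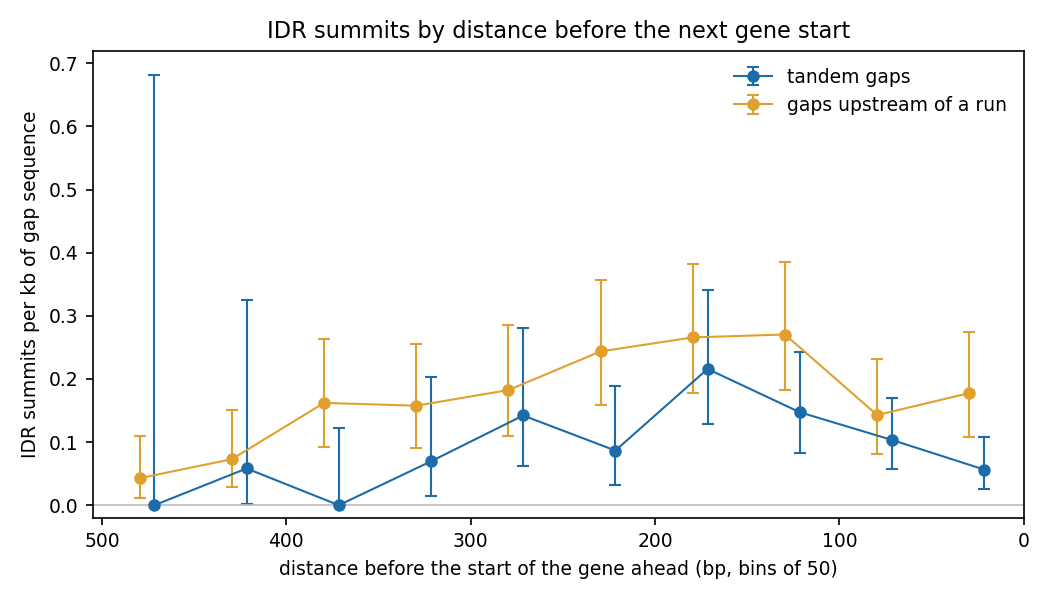
IDR summits per kb of gap sequence (vertical axis) in bins of 50 bp before the start of the gene ahead (horizontal axis, with the start at the right), for tandem gaps and for gaps upstream of a run. Bars are exact Poisson 95% intervals. Tandem gaps reached 0.216 per kb at 151 to 200 bp, and the bins beyond 350 bp held 1 tandem summit in all.

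Whole upstream gaps held an IDR summit more often than tandem gaps, but they are longer. Of the 2257 upstream gaps 232 (10.3%, 9.06 to 11.6%) held an IDR summit, with a median length of 1052 bp, and 178 (7.89%) held one within the 500 bp nearest the first gene. Between divergent runs 181 upstream gaps lead into 2 runs and count for each. In density, upstream gaps held 48.2 IDR summits per Mb as a whole and 175 per Mb in the nearest 500 bp, with the 105.5 per Mb of tandem gaps between them. By neighbour, the values were apart. Upstream gaps with a divergent neighbour held an IDR summit in 199 of 1415 cases (14.1%), and those with a neighbour on the same strand in 33 of 842 (3.92%).

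To set length aside, the gap upstream of the first gene and the first internal gap of the same run were cut to equal length, keeping the bases nearest the start ahead. An IDR summit then lay in the upstream stretch of 64 runs and in the internal stretch of 53, out of 2257, with 3 runs in both counts. An upstream gap between 2 divergent runs enters once for each, so these runs are not independent. Over the runs with a summit on 1 side alone, 61 were upstream and 50 internal, a difference of 0.487 percentage points of all runs that did not pass (exact sign test, two-sided, p = 0.343). Among the 1895 runs with an upstream gap of their own it was 40 against 48 (exact test, adjusted p = 0.491), so the direction rested on the shared gaps. Pooled summits lay upstream alone in 248 runs and internally alone in 202, a difference of 2.04 percentage points (p = 0.0338 by the exact test, 0.0676 after Benjamini-Hochberg adjustment over both tests).

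By the strand of the upstream neighbour the directions differed. In the 842 runs whose upstream neighbour lay on the same strand, an IDR summit was upstream alone in 6 runs and internal alone in 23, a difference, upstream minus internal, of -2.02 percentage points (exact sign test, p = 0.00232, 0.00463 adjusted). In these equal stretches the first internal gap was the more frequent place. Pooled summits went the same way there, with 66 against 79 runs, and did not pass (exact test, adjusted p = 0.319). The cut fell on the upstream gaps alone, which exceed 500 bp in these runs and had a median of 1344 bp. Uncut, 33 of the 842 held an IDR summit, so the order holds for equal stretches and not for whole gaps. In the 1415 runs with a divergent neighbour, an IDR summit was upstream alone in 55 and internal alone in 27, a difference of 1.98 percentage points (exact test, p = 0.00264, adjusted p = 0.00264). Pooled summits there were upstream alone in 182 runs and internal alone in 123 (exact test, adjusted p = 0.00174). Of the 55 runs 21 had an upstream gap that also leads into another run, and the 55 held 53 distinct summits. Without such gaps, in 1053 runs, the IDR counts were 34 against 25 and did not pass (exact test, adjusted p = 0.298), nor did the pooled counts of 119 against 92 (adjusted p = 0.146). A divergent upstream gap holds the start of the neighbour as well as that of the run, and a summit between them cannot be given to 1 of the genes. Whether the contrast differed between the 2 kinds of run was not itself tested. Restricting to upstream gaps of at most 500 bp, all of them divergent by the definition of a run, gave 38 against 4 runs (exact test, adjusted p = 5.65e-08), and 21 against 3 without shared gaps (exact test, adjusted p = 0.000277).

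**Figure D3:**
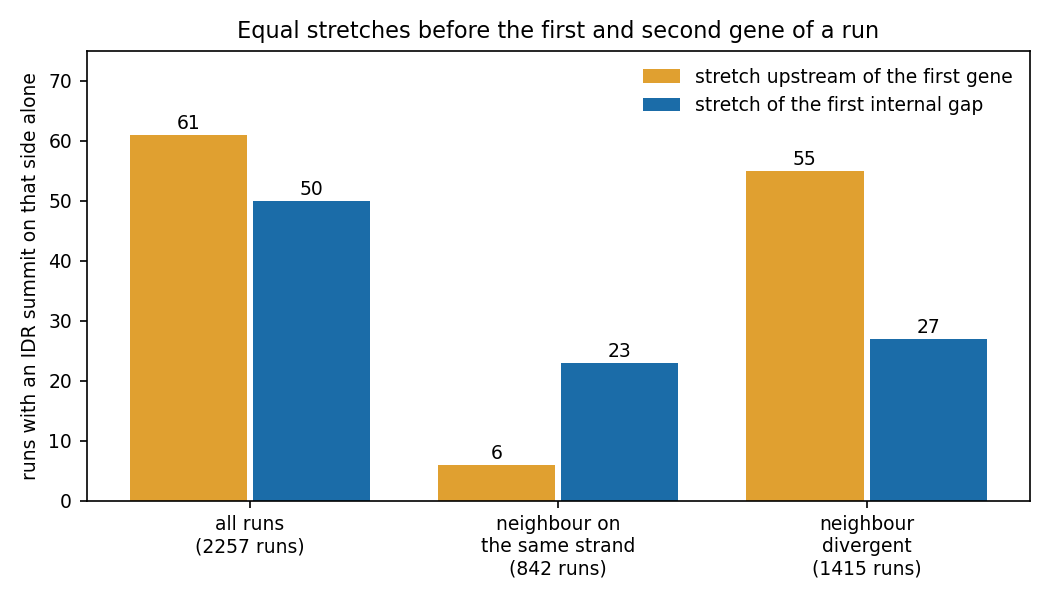
Number of runs with an IDR summit on 1 side alone (vertical axis), in equal stretches before the first gene and before the second gene of the run, for all runs and by the strand of the upstream neighbour. All runs gave 61 against 50, runs with a neighbour on the same strand 6 against 23, and runs with a divergent neighbour 55 against 27, which became 34 against 25 without upstream gaps shared by 2 runs.

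With whole gaps, 225 runs had an IDR summit upstream alone, 59 in an internal gap alone and 7 in both. The 7 were 10.6% of the 66 runs with an internal summit, near the 10.3% of all 2257 runs that had a summit upstream. The 7 internal gaps were W01G7.4/lem-2, lid-1/dao-5, rbg-3/fbxl-2, hsp-110/ufbp-1, tctn-1/timm-17B.1, ubc-7/rpac-19 and eif-3.B/tbc-20, and their internal summits ranked from 201 to 658. The eif-3.B/tbc-20 run, which begins with a subunit gene of initiation factor eIF3, had rank 18 upstream (signal 1144) and rank 658 inside (76.6). None of the 20 strongest internal summits was in a run with an IDR summit upstream. Among the 20, T16G12.12/ekl-6 was in a run without an upstream gap, and the difference from the 10.3% of all runs was not tested.

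The upstream gaps with the strongest peaks can be set beside the internal gaps they lead to, where 2.92% of all 2257 runs had an IDR summit. The strongest peak of all (signal 2374) lay in a divergent gap of 163 bp between the runs cux-7, clk-2 and C07H6.2, lig-4, and neither run had a pooled summit inside. The next (2264) led into wbp-4 and png-1, where png-1 encodes a peptide N-glycanase, across an internal gap of 103 bp without a pooled summit. Further ones lay upstream of F58D12.3 and D1086.21 (1363), upstream of pdzd-8, nstp-1 and bre-1 (1147), and upstream of eif-3.B (1144). Of these 5 upstream gaps, that of eif-3.B alone led into a run with an internal IDR summit.

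The signal is the authors' own value per peak, without a stated scale, and is used here to rank and describe peaks within a list. The 75 IDR summits in tandem gaps had signals from 71.6 to 1479 in the pooled list, with a median of 118.5 against 109.8 for all IDR peaks of chromosomes I to V. Of these, 4 were among the 20 strongest of the 765 IDR peaks, all 4 within the top 20 of both replicates, and 14 were among the strongest 100. The highest was in the 168 bp gap ahead of lrpr-1, a gene needed in meiosis, with 1479 in the pooled list, 739 in replicate 1 and 722 in replicate 2 (ranks 7, 8 and 7). Its summit lay 13 bp before the start of lrpr-1. The gap between tol-1, the Toll-like receptor gene of C. elegans, and W04C9.4 on chromosome I followed with 1376, 680 and 686 (ranks 9, 12 and 9). Both were among the 12 strongest peaks of each replicate, and signals of different lists have no common scale.

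The gap behind ugt-24, which encodes a member of the UDP-glucuronosyltransferase family, had 1228 in the pooled list, 624 in replicate 1 and 591 in replicate 2 (ranks 13, 15 and 13), with the summit 237 bp before C49A9.10. The gap from F26G1.15 to F26G1.1, the first of a run of 4 genes, had 1173, 618 and 543 (ranks 15, 18 and 20). Both were among the 20 strongest peaks of each replicate. The gap from ceeh-2, an epoxide hydrolase gene, to sluh-7, named for the splicing factor SLU7, reached 1077 (584 and 483). The gap ahead of ldp-1 reached 1058 (545 and 484). In the latter the summit stood 47 bp past the end of F22F7.2 and 323 bp before ldp-1. Behind pnc-1, the nicotinamidase gene, a gap of 104 bp, the shortest with an IDR summit, carried 1011 in the pooled list, 532 in replicate 1 and 462 in replicate 2, with the summit 9 bp before Y38C1AA.12.

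From rank 35 to rank 64 followed sre-36/F13A7.14 behind a chemoreceptor gene (968), C05C10.5/ufd-3 (800), where ufd-3 belongs to the ubiquitin pathway, F10E9.10/F10E9.11 (799), C26E6.12/set-2 (741) and T16G12.12/ekl-6 (682). The set-2 gene encodes the SET1-type methyltransferase of histone H3 lysine 4. In its gap the signal was 357 in replicate 1 and 368 in replicate 2 (ranks 61 and 53). The other 8 of the 20 strongest were atf-8/cwf-19L1 (534), gpd-1/T09F3.4 behind a glyceraldehyde 3-phosphate dehydrogenase gene (470), spsb-2/Y46E12BL.2 (420), K02B12.2/sec-12 (415), cua-1/ciao-2B behind a copper transporter gene (412), R05H10.7/rbm-28 (366), Y48G10A.3/ints-8 ahead of an Integrator subunit gene (320) and lec-1/btf-1 behind a galectin gene (276). All 20 ranked among the top 200 peaks of both replicates. All 20 were also the first internal gap of their run, as were 2397 of the 3262 tandem gaps. Those first gaps held 64 of the 75 IDR summits. The other 55 summits ranked from 157 to 755.

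**Figure D4:**
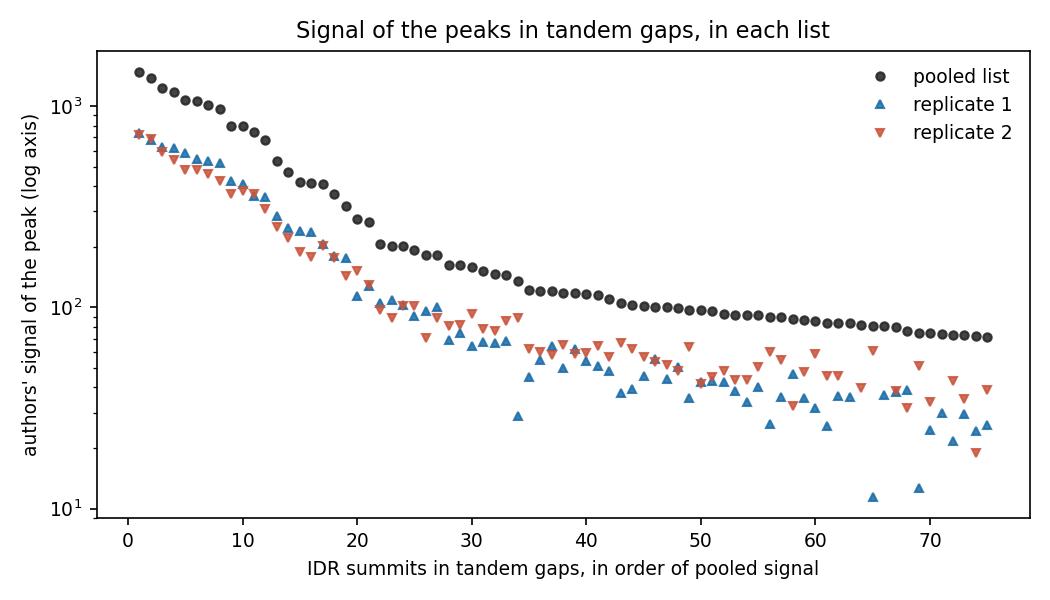
Authors' signal (vertical log axis) of the 75 IDR summits in tandem gaps, in order of pooled signal (horizontal axis), in the pooled list and, for the nearest summit within 100 bp, in each replicate. The pooled values fall from 1479 to 71.6. Replicate values fall along the same order, with a few low ones at the weak end, and the 3 lists have no common scale.

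Matching summits within 100 bp, 58 of the 75 (77.3%, 66.2 to 86.2%) had a counterpart among the top 765 peaks of both replicates, and 71 in both full lists. For all IDR peaks of chromosomes I to V the share in both top lists was 66.3% (62.7 to 69.8%), and in upstream gaps it was 70.0% (63.8 to 75.7%). Without a summit within 100 bp in 1 replicate were Y39G10AR.32/mcm-4 in replicate 1 and rrsr-1/rpoa-12, C50F4.6/his-37 and hst-1/snrp-3 in replicate 2. At 3 summits the nearest replicate peak ranked beyond 10000, namely F23C8.7/did-2 and gpr-1/dnj-10 in replicate 1 and the weaker summit of psf-3/icd-2 in replicate 2. These 7 summits ranked from 564 to 741 in the pooled list. The psf-3/icd-2 gap of 446 bp, between a GINS subunit gene and a subunit gene of the nascent polypeptide-associated complex, was the only tandem gap with 2 IDR summits (ranks 256 and 741).

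Along the runs, the first internal gap held an IDR summit in 63 of 2397 cases (2.63%, 2.03 to 3.35%), the second in 5 of 598 (0.836%, 0.272 to 1.94%) and later ones in 6 of 267 (2.25%, 0.829 to 4.83%). The median gap also became shorter, from 196 bp to 148.5 bp and 117 bp. By run length the share was 1.83% in runs of 2 genes, 2.61% in runs of 3 and 3.06% in runs of 4 or more, with overlapping intervals. The last gap of a run was 39 of the 74 gaps with an IDR summit (52.7%), against 2397 of all 3262 tandem gaps (73.5%), and the difference was not tested. In runs of 4 or more genes 19 gaps held an IDR summit, 11 of them the first and 8 a later internal gap. The 10 strongest led into F26G1.1, set-2, ciao-2B, rbm-28, the ribonuclease H gene rnh-2, the eIF3 subunit gene eif-3.C, the alpha-tubulin gene tba-2, ddp-1, the cap methyltransferase gene cmtr-1 and unc-16, a kinesin and kinase scaffold gene. Of these, unc-16 was the fourth gene of its run (signal 98.9, rank 428), and the other 9 were second genes. The run of C26E6.12, set-2, mmab-1, ula-1, rpb-8 and rars-1 was the only one with IDR summits in 2 internal gaps, ahead of set-2 (rank 58) and of rpb-8, an RNA polymerase subunit gene (rank 549).

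Gene groups typical of operons were collected by symbol prefix, which does not find every gene of a group. Of 27 tandem gaps leading into mitochondrial ribosomal protein genes, 14 into respiratory chain genes, 8 into proteasome genes and 8 into splicing genes, none held an IDR summit, which allows up to 11.1%, 21.4%, 37.5% and 37.5% by the rule of 3 counts over the total. Genes of related function outside these prefixes did have one ahead of them, namely sluh-7 (rank 26), the NADH dehydrogenase subunit gene nduf-11 (rank 482) and the small nuclear ribonucleoprotein gene snrp-3 (rank 713), which were picked after their values were seen. The median gaps of the 4 lists were 105, 103, 114 and 102 bp, in that order. Cytosolic ribosomal protein genes gave 1 of 8 gaps (rps-17, signal 72.5), translation factors 2 of 7 (eif-3.C, 146.9, and eif-2gamma, 74.4) and aminoacyl-tRNA synthetases 1 of 10 (yars-2, 182). Nuclear hormone receptor genes gave 0 of 38 and collagen genes 0 of 18, which allows up to 7.89% and 16.7% by the same rule. Their median gaps were 241 and 207 bp, and the part of gap length in these counts was not tested. With so few gaps per list, a share at the 2.27% of all tandem gaps could not be told from 0.

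Of 5 operon pairs known from textbooks, 3 were members. The gap of fib-1/rps-16 (109 bp), that of des-2/deg-3 (112 bp), which encode acetylcholine receptor subunits, and that of mev-1/ced-9 (3 bp) held neither an IDR nor a pooled summit. The fib-1/rps-16 run had an IDR summit in the divergent gap upstream of fib-1, shared with mut-15, with a signal of 202 in the pooled list, 75.8 in replicate 1 and 124 in replicate 2 (ranks 196, 234 and 166). The gene mev-1, earlier called cyt-1, encodes a subunit of respiratory complex II, and ced-9 the cell death inhibitor related to Bcl-2. Their run had an IDR summit in the divergent gap upstream of mev-1, shared with jmjd-4 (rank 329). The genes lir-1 and lin-26 overlap by 166 bp in the gene models and dpy-30 and rnp-1 by 113 bp, so no gap was measured there.

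What the summit windows shared in sequence was not part of the choice of gaps. Within 50 bp of the summit, on either strand, GGCCTA was found at 16 of 75 IDR summits in tandem gaps (21.3%, 12.7 to 32.3%), GGCCAC at 16, CGGCCA at 15 (20%), CTAGGC at 13 (17.3%) and ACGCGC at 20 (26.7%). The shares among 349 other pooled summits in tandem gaps were 1.72%, 0.860%, 2.58%, 2.58% and 6.88%, and at the middles of the 2492 tandem gaps over 100 bp they were 1.73%, 1.36%, 1.81%, 2.25% and 3.41%. At the 243 IDR summits counted in upstream gaps, 206 of them distinct, they were 16.9%, 16.9%, 18.1%, 15.2% and 15.6%. These 5 words were leading ones in an earlier analysis of the same peaks, so they are a description and not independent evidence. GGCCAC and CGGCCA overlap in CGGCCAC, and GGCCTA and the other strand of CTAGGC overlap in GGCCTAG. Of the 20 strongest tandem summits 16 held any of the 4 GGCC words, against 8 of the other 55.

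The homeobox core word TAAT was at 53.3% of the IDR summits in tandem gaps (41.4 to 65.0%), at 73.4% of the other pooled summits there and at 71.7% of gap middles. ATCGAT and ATTGAT were at 1.33% and 8% of the IDR summits and at 4.86% and 12.1% of gap middles. The windows also differed in base composition, with a median GC content of 43.6% at IDR summits, 32.7% at other pooled summits and 32.7% at gap middles. The part of base composition in the word counts was not tested.

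A further 2 words, TCTCGG and CGCCAA, were noticed in the windows of the strongest summits in tandem gaps and are given without a test. Their counts at these same summits are therefore not independent of the choice. TCTCGG was at 16 of 75 IDR summits in tandem gaps (21.3%), at 3.44% of the other pooled summits and at 2.53% of gap middles. CGCCAA was at 17 (22.7%), at 3.72% and at 3.93%. TCTCGG read in the direction of the gene ahead at 14 summits and on the other strand at 3. For GGCCTA these counts were 13 and 3, for CGCCAA 12 and 5, and for ACGCGC 12 and 10. GGCCAC went the other way, at 4 and 12, as did CGGCCA at 5 and 11 and CTAGGC at 3 and 10. The windows were written on the strand of the gene ahead, so the direction of the later words is not independent of their choice. At IDR summits in upstream gaps TCTCGG was in the direction of the run at 15 and against it at 23, and GGCCTA at 20 and 24. A word at a summit shared by 2 divergent runs counts there once in each direction, which evens out these counts. At the 35 upstream summits with a neighbour on the same strand, TCTCGG was at 1 and 3 and GGCCTA at 3 and 2. These are too few to set beside the tandem gaps, and no difference in direction was tested. The longer word CTCCTCTCGG, also chosen late, extends TCTCGG, so its share at the tandem summits is not independent of that choice. It occurred at 335 places on chromosomes I to V, 47 of which (14.0%, 10.5 to 18.2%) had an IDR summit within 50 bp. Inside tandem gaps it occurred at 8 places, and 6 had an IDR summit within 50 bp. These 6 were in tol-1/W04C9.4, F26G1.15/F26G1.1, sre-36/F13A7.14, dpy-9/R02D3.8, ubxn-3/F48A11.4 and efa-6/Y55D9A.2, all in the direction of the gene ahead. The 2 without one, in T02G5.14/T02G5.3 and cyn-16/Y17G7B.8, were on the other strand. TGGCCTAG occurred at 5509 places, 125 with an IDR summit (2.27%), and at 25 places in tandem gaps, 11 with one. It extends GGCCTA, a leading word of the earlier analysis of these peaks, so these counts are a description too.

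Of the 3262 gaps, 103 overlapped an annotated noncoding gene or pseudogene, and 4 of these (3.88%, 1.07 to 9.65%) held an IDR summit, against 70 of 3159 (2.22%, 1.73 to 2.79%) without one. Gaps with a snoRNA gene were few, and 2 of 5 held an IDR summit, among them Y53F4B.12/cmtr-1. By chromosome the share was 2.83% on I, 2.74% on II, 2.60% on III, 2.52% on IV and 1.15% (0.551 to 2.10%) on V. Chromosome V had the longest median gap, at 238 bp. Gaps of the same kind on X, outside the definition, held an IDR summit in 3 of 264 cases (1.14%).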

How the data were processed

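Peaks came from ChIP-seq of 2 biological replicates. The authors deposited 4 narrowPeak lists in build ce11, with 23796 peaks for replicate 1, 30000 for replicate 2, 30000 for the pooled list and 765 for the IDR list. Per the labels' file notes deposited by the authors, replicate and pooled lists derive from alignments and 1 control shared by both replicates. The aligner, caller, versions and IDR cut-off were not given in the sources used here. Column 7 of the deposited lists, the authors' signal value, has no stated scaling and was used within lists only. The IDR list equals the 765 strongest pooled peaks. The lists hold no read counts, so depth is unknown.

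A summit was column 2 plus column 10, given 1-based. Gaps were computed in Python 3.11.15 with SciPy 1.17.1 and checked on simulated gene models. Shares have exact 95% intervals. The limit beside a count of 0 is 3 counts over the total. The paired comparison used an exact two-sided sign test over runs, with Benjamini-Hochberg adjustment over 2 tests. Each replicate was also used alone. Named genes were, by rule, the pairs at the 20 strongest IDR summits in tandem gaps, the 5 strongest upstream gaps, up to 10 gaps in runs of 4 or more genes, up to 4 genes per gene list, and 5 textbook operon pairs. Gaps named for other reasons were chosen after their values were seen. The gaps, lists, words and tests were chosen with earlier results of these data known. The gene lists were made by symbol prefix. Other settings were a longest gap of 300 or 1000 bp, gaps free of noncoding genes, whole gaps, peak intervals and the 382 strongest peaks. Leaving out runs that share an upstream gap was added after the data were seen.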

Additional observations from a re-analysis of the deposited data

How the results depend on the processing

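Of 67 alternatives, 36 kept both direction and side of the threshold, or stayed within the interval of the share. The difference between upstream and first internal stretch, 0.487 percentage points for IDR summits and 2.04 for pooled summits, followed the setting. Whole gaps, where upstream gaps are longer, gave 7.75 and 44.1, and any internal gap gave 7.35 and 41.1. Peak intervals, which reach into a stretch from outside it, gave 4.25 and 10.8, and upstream gaps of at most 500 bp gave 8.23 and 15.98. All of these passed. Leaving out upstream gaps shared by 2 runs, an alternative chosen after the data were seen, turned the IDR difference to -0.422 and gave 0.739 for pooled summits, and neither passed. With upstream gaps of at most 500 bp it gave 6.59 and 12.8, both of which passed, and with divergent neighbours 0.855 and 2.56, neither of which did. By neighbour the values were -2.02 and -1.54 on the same strand and 1.98 and 4.17 for divergent runs. Gaps free of noncoding genes gave 3.19 for pooled summits, which passed, and the cause was not tested. Without replicate 1 or 2 the differences were 0.310 to 0.798 for IDR and 1.24 to 2.30 for pooled summits, and the pooled one passed without replicate 1 (exact test, adjusted p = 0.0322) and not without replicate 2 (0.354).

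With the 382 strongest peaks, fewer peaks by construction, the share was 1.29% of tandem, 6.03% of upstream, 8.41% of divergent and 0% of convergent gaps, and 9.91% of pooled summits. A longest gap of 300 bp gave 1.58% of tandem, 12.3% of upstream and 11.1% of divergent gaps. A longest gap of 1000 bp gave 8.59% of upstream gaps and 13.5% of pooled summits. The 500 bp nearest the first gene gave 7.89%. Convergent gaps free of noncoding genes gave 0%, and without replicate 1 or 2 their share was 0 to 0.0907%. In full replicate lists 94.7% of the members had a counterpart. Each replicate alone gave 2.18 to 2.21% of tandem gaps, 9.88 to 9.97% of upstream gaps and 12.7 to 13.1% of divergent gaps. Depth is unknown, so a gap without a summit is a gap without one in these lists.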
